A study of Mus musculus with 11 samples.

Results

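Genes of necroptosis and pyroptosis were followed in the pancreas and the epididymal adipose tissue of mice with obesity-related, alcohol-induced acute pancreatitis (OA-AP). They were chosen by gene symbol and are Ripk1, Ripk3, Mlkl, Zbp1, Casp1, Casp4, Casp8, Gsdmd, Nlrp3 and Pycard. All 10 had a row among the 54532 genes of the pancreas count table and among the 46078 genes of the adipose count table. All mice were male and wild type, of strain C57BL/6 by the labels and C57BL/6J by the study's methods, with a labelled age of 16 weeks, and no group carried a transgene. OA-AP mice had eaten a diet with 60 kcal% fat for 12 weeks and were injected intraperitoneally with ethanol, at 2 g/kg, 2 times 1 h apart. Control mice had eaten a diet with 10 kcal% fat for the same time and received saline by the same schedule. Organs were taken 12 h after the first injection. The RNA sequencing libraries numbered 2 control and 3 OA-AP for the pancreas, and 3 of each for fat. Because diet and ethanol were changed together, their parts in any difference below cannot be told apart.

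Necroptosis and pyroptosis are forms of cell death that end in rupture of the plasma membrane. In necroptosis, death receptors, Toll-like receptors or the nucleic acid sensor ZBP1 bring together the kinases RIPK1 and RIPK3, RIPK3 phosphorylates MLKL, and MLKL permeabilises the membrane, while caspase-8 cleaves the kinases and restrains the pathway. In pyroptosis, a sensor such as NLRP3 assembles with the adaptor ASC, encoded by Pycard, and activates caspase-1, whereas the product of mouse Casp4 responds to cytosolic lipopolysaccharide, and both caspases cleave gasdermin D to open pores. Necrosis of acinar cells, the enzyme-secreting cells of the pancreas, and inflammation of visceral fat are known features of acute pancreatitis in obesity. The measurements are of mRNA and say nothing of the cleavage or phosphorylation by which these proteins are switched on.

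The libraries held 14188832 to 17238919 counts in the pancreas and 20825177 to 27928097 in adipose tissue. Values are given as CPM, a gene's counts relative to the library total, scaled within each tissue by trimmed mean of M-values (TMM) factors. A gene was called changed at an edgeR adjusted p under 0.05 with a fold change of at least 1.5. The p-values set the difference between the groups against the spread between these libraries, which was estimated with the help of all tested genes. Tissue identity matched the labels, with the summed adipocyte markers at 33900 to 40600 CPM in adipose libraries and 12 acinar markers taking 38.2 to 49.9% of the counts in pancreas libraries. Adipose control 2 stood apart, because acinar markers took 0.574% of its counts against at most 0.00173% in the other adipose libraries, and its 8 T and B lymphocyte markers summed to 47.2 CPM against 12.8 and 15.2 in the other controls. In whole tissue, fewer cells of a type and less RNA per cell cannot be told apart.

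In adipose tissue 7 of the 10 genes rose in OA-AP by edgeR and DESeq2 alike, and 0 were called lower by either, with 1, Gsdmd, lower at an unadjusted p under 0.05 in edgeR. Of all 15839 genes tested in this tissue, 25.1% were called, 12.1% higher and 13.0% lower. The median log2 fold change was 0.81 for the 10 genes and -0.01 for all tested genes. Casp4 and Nlrp3 rose most, followed by Ripk3, Pycard, Casp8, Mlkl and Ripk1. Casp1 and Zbp1 did not pass the test, and Gsdmd had lower values by less than 1.5-fold.

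**Figure D1:**
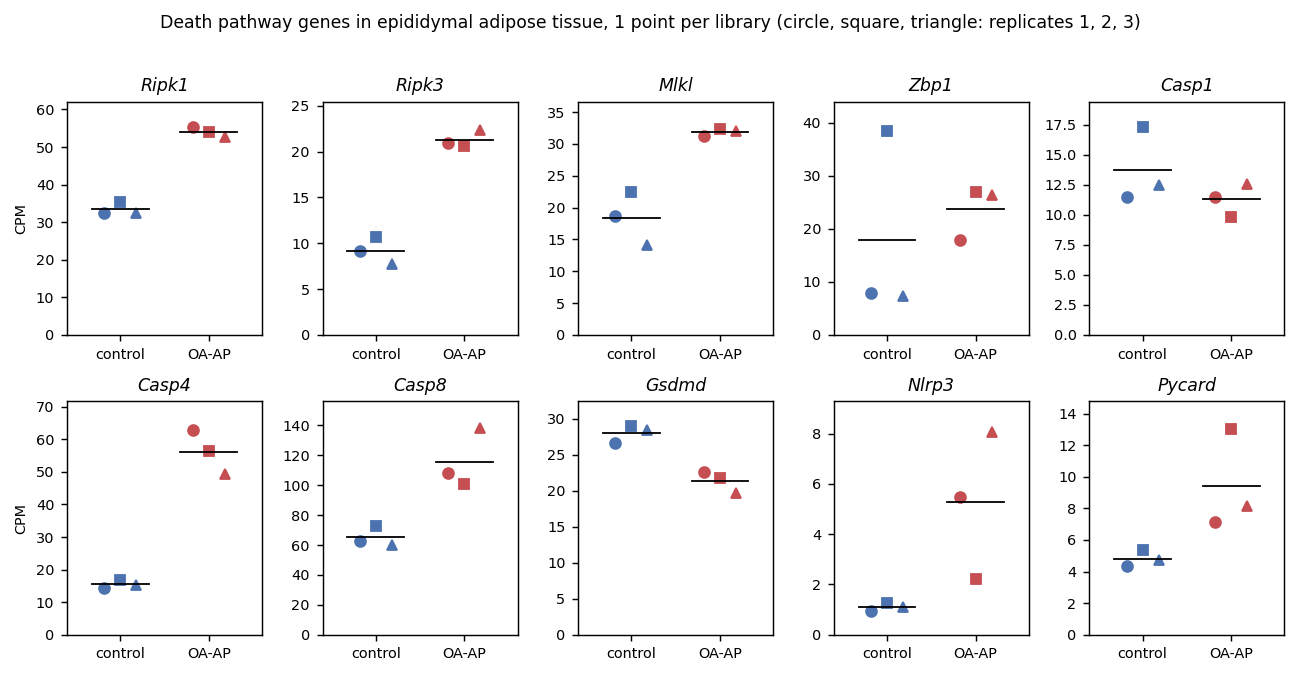
CPM of the 10 genes in adipose tissue, 1 panel per gene with its own linear axis from 0, with points for the 3 control and 3 OA-AP libraries and lines at the group means. In the Casp4 panel the OA-AP libraries sit between 49.3 and 62.7 CPM and the controls between 14.4 and 16.8 CPM, while in the Zbp1 panel control 2, at 38.4 CPM, lies above every other library.

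Among the necroptosis genes, Zbp1 encodes the sensor (ENSMUSG00000027514, protein-coding, GRCm38 chromosome 2, 173206612 to 173218923, minus strand). Its adipose values were 7.93, 38.4 and 7.32 CPM in the controls and 17.8, 27.0 and 26.4 CPM in OA-AP. The OA-AP libraries lay between control 2 and the other two controls, so the groups overlapped and the difference did not pass the test (log2 fold change 0.41, SE 0.64, edgeR adjusted p = 0.64). Without control 2, which held the acinar and lymphocyte transcripts, Zbp1 was 1.65 higher on the log2 scale and was called (edgeR adjusted p = 0.00587). The other 12 of 13 alternatives did not call it. Without control 1 the value was 0.08 (edgeR adjusted p = 0.942), and without control 3 it was 0.06 (edgeR adjusted p = 0.957). Control 2 also had the highest control values of the interferon-inducible guanylate-binding proteins Gbp3, at 96.6 CPM against 34.0 and 24.0 CPM, and Gbp5, at 51.2 CPM against 16.1 and 10.5 CPM. Their part in the Zbp1 value was not tested. Gbp3 and Gbp5 were picked here after their values were seen.

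Ripk1 encodes the kinase that sits below the TNF receptor (ENSMUSG00000021408, protein-coding, chromosome 13, 34002363 to 34037147, plus strand). It measured 32.4, 35.5 and 32.5 CPM in control adipose tissue and 55.3, 53.9 and 52.6 CPM in OA-AP. All OA-AP libraries were above all controls and the 3 values of each group lay close together. Ripk1 rose by 0.69 on the log2 scale (SE 0.08, fold 1.61, edgeR adjusted p = 0.00139), and with scaling by library totals alone the difference was 0.54, under the 1.5-fold limit. Ripk1 shares 511 exonic bases with the pseudogene Gm17084 on the same strand, which had 31 counts in the adipose libraries together and 0 in the pancreas libraries. It also shares 241 exonic bases with Serpinb6a, a serpin gene on the opposite strand. The strand setting of the counting is not given in the sources used here. Serpinb6a rose as well, by 0.95 in adipose tissue (SE 0.16, edgeR adjusted p = 0.00453), and the part of shared reads in the Ripk1 counts was not tested.

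Ripk3 encodes the kinase that activates MLKL (ENSMUSG00000022221, protein-coding, chromosome 14, 55784995 to 55788865, minus strand). Control adipose libraries had 9.12, 10.7 and 7.73 CPM and OA-AP libraries 20.9, 20.6 and 22.4 CPM. The groups were far apart relative to their spread. Ripk3 averaged 9.19 ± 1.5 CPM in controls and 21.3 ± 0.988 CPM in OA-AP (SD, n = 3 each). It rose by 1.21 on the log2 scale (SE 0.14, edgeR adjusted p = 0.00139). Mlkl encodes the pore-forming executioner of the pathway (ENSMUSG00000012519, protein-coding, chromosome 8, 111311797 to 111338177, minus strand). Its values were 18.7, 22.5 and 14.1 CPM in controls and 31.2, 32.4 and 32.1 CPM in OA-AP. Controls were scattered and OA-AP libraries nearly equal, without overlap, and Mlkl rose by 0.79 on the log2 scale (SE 0.16, edgeR adjusted p = 0.00998). Casp8, the protease that restrains necroptosis and also starts apoptosis (ENSMUSG00000026029, protein-coding, chromosome 1, 58795374 to 58847503, plus strand), measured 63.0, 72.6 and 60.2 CPM in controls and 108, 101 and 138 CPM in OA-AP. It rose by 0.83 on the log2 scale (SE 0.14, fold 1.77, edgeR adjusted p = 0.00488), so transcripts of both kinases, of the executioner and of the restraining protease were all higher in OA-AP fat.

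Casp4, whose product responds to cytosolic lipopolysaccharide (ENSMUSG00000033538, protein-coding, chromosome 9, 5308828 to 5336783, plus strand), showed the smallest p-value of the 10 genes in adipose tissue. It went from 14.4, 16.8 and 15.4 CPM in controls to 62.7, 56.3 and 49.3 CPM in OA-AP. The lowest OA-AP library was far above the highest control, and the means were 15.5 ± 1.24 and 56.1 ± 6.67 CPM (SD, n = 3 each). Casp4 rose 3.62-fold, or 1.86 on the log2 scale (SE 0.12, edgeR adjusted p = 0.000252), and its log2 fold change stayed between 1.70 and 1.94 in all 13 alternative analyses. Casp1, its neighbour on the same strand and a relative in sequence (ENSMUSG00000025888, protein-coding, chromosome 9, 5298517 to 5307265), behaved differently. It measured 11.5, 17.3 and 12.5 CPM in controls and 11.5, 9.86 and 12.6 CPM in OA-AP. The groups overlapped and the log2 fold change was -0.28 (SE 0.19, edgeR adjusted p = 0.263). How reads common to related caspase genes were assigned was not tested.

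Nlrp3, the inflammasome sensor (ENSMUSG00000032691, protein-coding, chromosome 11, 59541568 to 59566956, plus strand), was the least abundant of the 10 transcripts in adipose tissue. Control libraries held 0.959, 1.27 and 1.09 CPM and OA-AP libraries 5.49, 2.21 and 8.08 CPM. Each OA-AP value exceeded each control value, but the OA-AP libraries differed widely among themselves, from 46 counts in OA-AP 2 to 160 counts in OA-AP 3. Nlrp3 rose 4.74-fold, or 2.25 on the log2 scale (SE 0.46, edgeR adjusted p = 0.0102). Pycard, the gene of the ASC adaptor (ENSMUSG00000030793, protein-coding, chromosome 7, 127989708 to 127993867, minus strand), measured 4.35, 5.38 and 4.73 CPM in controls and 7.15, 13.0 and 8.13 CPM in OA-AP. Here OA-AP 2, the lowest library for Nlrp3, was the highest. Pycard rose by 0.97 on the log2 scale (SE 0.25, edgeR adjusted p = 0.0206), and the call was lost without control 1 (0.92, edgeR adjusted p = 0.0746) and without control 3 (0.97, edgeR adjusted p = 0.0713).

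Gsdmd, which encodes the pore protein gasdermin D (ENSMUSG00000022575, protein-coding, chromosome 15, 75862327 to 75867408, plus strand), had values of 26.6, 29.0 and 28.4 CPM in control adipose tissue. OA-AP libraries had 22.6, 21.7 and 19.7 CPM. The OA-AP libraries were all below the controls, with means of 28.0 ± 1.26 and 21.3 ± 1.46 CPM (SD, n = 3 each). The log2 fold change of -0.39 (SE 0.09) had an edgeR adjusted p of 0.0176, but at a fold of 0.763 it did not reach the 1.5-fold limit and was not called. In fat, then, transcripts of a sensor, the adaptor and the lipopolysaccharide-responsive caspase were higher, and those of caspase-1 and gasdermin D were not.

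Of the promoters listed by RefSeq for mouse assembly GRCm38.p6, each 250 bases before to 50 bases after a transcription start, 11 windows belonged to 8 of the 10 genes. Both strands were searched for GAAANNGAA, a core of the interferon-stimulated response element, for TTCNNNGAA, the STAT-type GAS core, and for GGGNNTTTC, an NF-kB-type core. These letters occur in 8.6%, 8.3% and 4.4% of the 32851 listed promoters, so a match in a given window is a description and not a site. Casp4, Ripk3 and Ripk1 had windows with matches, and the windows of Mlkl, Casp1, Casp8, Nlrp3 and Pycard had none. Of the Ripk1 windows, only that at 34002624 to 34002923 had matches. The Ripk1 window at 34002113 to 34002412, which holds the annotated gene start of 34002363, had none. Sequences are shown for the 3 genes with matches, which rose in fat, and for Pycard, whose change differed most between tissues. Of the genes without a match, Mlkl, Casp8, Nlrp3 and Pycard rose in fat as well, and Casp1 was not called. The sequences read 5′ to 3′ on the gene's own strand and capitals mark the motif matches.
Casp4, chr9:5308599-5308898, plus strand: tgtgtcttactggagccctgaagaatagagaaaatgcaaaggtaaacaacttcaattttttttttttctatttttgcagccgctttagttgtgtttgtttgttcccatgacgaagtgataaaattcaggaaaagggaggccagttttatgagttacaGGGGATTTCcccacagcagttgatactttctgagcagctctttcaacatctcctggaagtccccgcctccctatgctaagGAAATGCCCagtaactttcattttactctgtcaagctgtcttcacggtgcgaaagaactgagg
Ripk3, chr14:55788808-55789107, minus strand: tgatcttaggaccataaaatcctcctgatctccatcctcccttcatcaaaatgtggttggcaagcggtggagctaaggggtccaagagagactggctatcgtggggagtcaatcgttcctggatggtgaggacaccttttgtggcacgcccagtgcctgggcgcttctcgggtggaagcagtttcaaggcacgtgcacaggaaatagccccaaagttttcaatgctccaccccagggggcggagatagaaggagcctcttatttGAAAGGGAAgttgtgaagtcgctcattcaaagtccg
Ripk1, chr13:34002624-34002923, plus strand: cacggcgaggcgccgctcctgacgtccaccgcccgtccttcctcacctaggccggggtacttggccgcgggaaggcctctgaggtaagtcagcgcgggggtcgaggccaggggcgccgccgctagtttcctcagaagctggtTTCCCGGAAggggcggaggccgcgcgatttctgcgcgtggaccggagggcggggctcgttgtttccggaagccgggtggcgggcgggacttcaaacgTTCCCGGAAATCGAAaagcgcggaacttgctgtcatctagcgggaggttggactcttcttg
Pycard, chr7:127993818-127994117, minus strand: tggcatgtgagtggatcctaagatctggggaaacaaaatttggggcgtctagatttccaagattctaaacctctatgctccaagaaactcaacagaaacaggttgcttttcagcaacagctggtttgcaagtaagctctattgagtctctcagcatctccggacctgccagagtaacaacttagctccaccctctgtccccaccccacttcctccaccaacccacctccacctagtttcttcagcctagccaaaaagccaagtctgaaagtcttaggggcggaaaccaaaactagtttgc
In the Casp4 window the NF-kB-type letters begin 93 bases before the start site on the plus strand and, read on the other strand, 13 bases before it. In the Ripk3 window the ISRE-type core lies at position 15 after the start. In the Ripk1 window shown, a GAS-type core begins 108 bases before the start site of that window. A further one, at 11 bases before this start site, overlaps the ISRE-type core at 5 bases before it.

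In the pancreas the 10 genes were expressed at low levels, with 0 to 294 counts per gene and library. Ripk1 rose, Pycard fell, and no other of the 8 genes that could be tested was called. Among all 12884 genes tested in the pancreas 29.8% were called, so 2 of 8 is close to the background. The median log2 fold change was -0.14 for the 8 genes and 0.04 for all tested genes. Casp1 and Nlrp3 did not pass edgeR's filter for low counts, and without it their adjusted p-values in edgeR were 0.936 and 0.334.

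**Figure D2:**
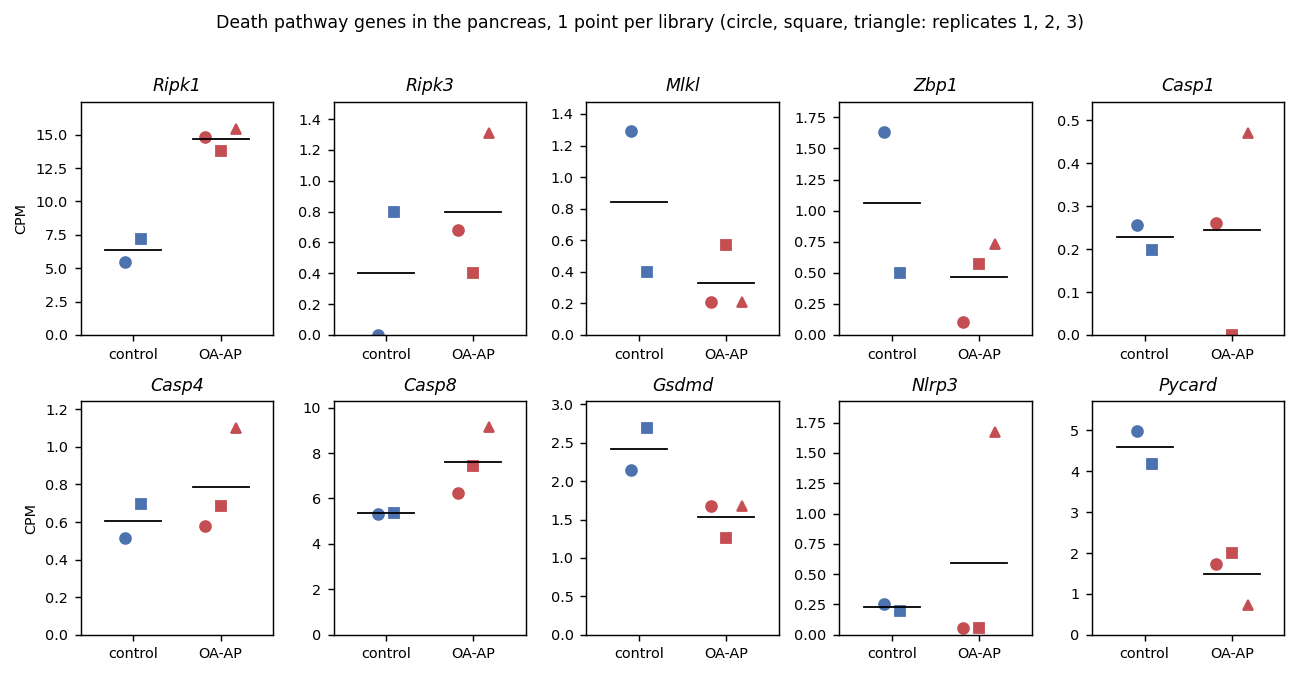
CPM of the 10 genes in the pancreas, 1 panel per gene with its own linear axis from 0, with points for the 2 control and 3 OA-AP libraries and lines at the group means. The Ripk1 panel shows controls at 5.49 and 7.18 CPM below OA-AP at 13.8 to 15.4 CPM, the Pycard panel shows the opposite order, and 6 of the other panels stay under 2 CPM.

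Ripk1 measured 5.49 and 7.18 CPM in the control pancreas (64 and 72 counts) and 14.8, 13.8 and 15.4 CPM in OA-AP (281, 241 and 294 counts). The groups were separated by far more than their spread, and Ripk1 rose 2.32-fold, or 1.21 on the log2 scale (SE 0.19, edgeR adjusted p = 0.00229). The call was kept in all 12 alternative analyses, in which the log2 fold change ran from 1.03 to 1.93. The overlapping Serpinb6a rose by 0.98 in the pancreas (SE 0.13, edgeR adjusted p = 0.00146), and the part of shared reads was not tested here either.

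Pycard moved the other way. Control pancreas had 4.98 and 4.19 CPM (58 and 42 counts), and OA-AP pancreas had 1.73, 2.00 and 0.732 CPM (33, 35 and 14 counts). The controls were both above the OA-AP libraries, with means of 4.58 ± 0.558 (SD, n = 2) and 1.49 ± 0.669 CPM (SD, n = 3). Pycard fell by 1.62 on the log2 scale (SE 0.42, edgeR adjusted p = 0.0212). This call was lost without control 1 (-1.48, edgeR adjusted p = 0.145), without control 2 (-1.74, edgeR adjusted p = 0.0986), without OA-AP 1 (-1.76, edgeR adjusted p = 0.0526) and with scaling by library totals alone (-0.90, edgeR adjusted p = 0.134). Pycard shares 485 exonic bases with Gm45205 on the opposite strand, which had 1 count in the pancreas libraries together.

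Results in this tissue depended on the scaling. The acinar share of the counts was 48.2 and 49.9% in controls and 38.2, 39.2 and 42.2% in OA-AP, and 8 of the 12 acinar markers were called lower. Its part in the scaling was not tested beyond TMM factors computed without these markers, under which the calls of the 10 genes were the same. Leaving out these 12 genes hardly moved the fit, with 3836 against 3834 genes called. The unchanged calls therefore say little about that part. With library totals alone the median change over all genes, on the log2 scale, moved from 0.04 to 0.75, and the share of higher genes among the called from 54.5 to 92.0%. Under that scaling 2 of the 10 genes were called, both higher. One was Ripk1 and the other Casp8, at 1.2 on the log2 scale (edgeR adjusted p = 0.00227). With TMM factors Casp8 had 5.32 and 5.38 CPM in controls and 6.25, 7.44 and 9.15 CPM in OA-AP, a log2 fold change of 0.51 (SE 0.23, edgeR adjusted p = 0.128). The OA-AP values were all higher than the controls, but the difference did not pass the test. Gsdmd had 2.15 and 2.69 CPM in controls and 1.68, 1.26 and 1.67 CPM in OA-AP, without overlap. Its log2 fold change was -0.65 (SE 0.35, edgeR adjusted p = 0.191), and 0.07 with library totals, so no direction can be given for it.

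The remaining 6 genes had fewer than 100 counts each over the 5 pancreas libraries, and differences in them were hardly detectable at this depth. Ripk3 had 0 and 8 counts in the control pancreas, where 0 allows up to 3 counts, and 13, 7 and 25 counts in OA-AP. Mlkl had 15 and 4 counts in controls and 4, 10 and 4 in OA-AP. Zbp1 had 19 and 5 counts in controls and 2, 10 and 14 in OA-AP. For each of these genes the groups overlapped, and the edgeR adjusted p-values were 0.462 for Ripk3, 0.187 for Mlkl and 0.275 for Zbp1. Casp4, the strongest of the called genes in fat by p-value, had 6 and 7 counts in the control pancreas and 11, 12 and 21 in OA-AP, at a log2 fold change of 0.38 (SE 0.56, edgeR adjusted p = 0.628). Casp1 had 3 and 2 counts in controls and 5, 0 and 9 in OA-AP. Nlrp3 had 3 and 2 counts in controls and 1, 1 and 32 in OA-AP. The high Nlrp3 value belonged to OA-AP 3 alone, the library in which 8 neutrophil markers summed to 101 CPM against 13.2 and 3.6 CPM in the other OA-AP libraries. The part of neutrophils in that value was not tested. Limits from counts of 0 cover counting error only.

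Per kilobase of the deposited gene length, the abundance order of the 10 transcripts differed between tissues. For Pycard that length was 3800 bases, nearly the whole gene span from 127989708 to 127993867. Lengths of spliced transcripts were not used, so the order, the place of Pycard included, holds only for the deposited lengths. In control adipose tissue Casp8 was highest at 22.6 CPM per kb, followed by Gsdmd at 11.8 and Casp1 at 9.20 CPM per kb, with Pycard at 1.27 and Nlrp3 at 0.273 CPM per kb last. The ranges of Gsdmd and Casp1 overlapped, as did those of each further pair of neighbours down to Ripk3, whereas Casp8 at the top and Pycard and Nlrp3 at the bottom were clear of their neighbours. In OA-AP fat Casp8 remained first at 40.0 CPM per kb, and Casp4 stood at 15.1 CPM per kb in the second place, overlapping Mlkl at 13.9 CPM per kb. In the control pancreas Casp8 was first again at 1.85 CPM per kb, and Pycard came next at 1.21 CPM per kb, overlapping Gsdmd at 1.02 CPM per kb. Ripk1 rose in the pancreas order from 0.759 to 1.76 CPM per kb, behind Casp8 at 2.63 CPM per kb and clear of Gsdmd at 0.646 CPM per kb.

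Between control tissues, the level in CPM was higher in fat for 9 of the 10 genes. The ratios ran from 4.87-fold for Nlrp3 to 60.5-fold for Casp1, which both had 3 and 2 counts in the control pancreas. Pycard was at 4.82 CPM in fat and 4.58 CPM in the pancreas. The share of all genes higher in fat is not given here, so the 9 of 10 has no background beside it. The tissues were scaled apart and the acinar share of counts was 48.2 and 49.9% in control pancreas libraries, so these ratios are given as values with no test. The gene length is the one deposited with the pancreas table.

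Whether the change with OA-AP differed between the tissues was tested with all 11 libraries in the tissue by condition term. It did so at an edgeR adjusted p under 0.05 for 4 of the 10 genes, against 21.3% of all 17046 genes in that fit. Pycard differed most, by 2.59 on the log2 scale (adipose minus pancreas, SE 0.51, edgeR adjusted p = 0.00385), having risen in fat and fallen in the pancreas. It was called in all 17 alternative analyses, with differences from 1.74 to 2.86. Mlkl differed by 2.20 (SE 0.63, edgeR adjusted p = 0.0284) and Casp4 by 1.45 (SE 0.43, edgeR adjusted p = 0.0334), both relatively higher in fat. Ripk1 differed by -0.54 (SE 0.17, edgeR adjusted p = 0.0485), being raised more in the pancreas. The last 3 were less stable, as the call was lost in 8 of 17 alternatives for Mlkl, in 10 for Casp4 and in 12 for Ripk1. The tissue difference of Ripk3 was 0.10 (SE 0.96), of Casp8 0.31 (SE 0.25) and of Gsdmd 0.24 (SE 0.25), none of which passed the test. That of Nlrp3 was 0.84 (SE 1.79) and was not called in 16 of 17 alternatives, which began at 0.10. The exception was the fit without pancreas OA-AP 3, at 4.26 (edgeR adjusted p = 0.0465). In that fit Nlrp3 had 3 and 2 counts in control pancreas and 1 and 1 in OA-AP pancreas. That of Zbp1 was 1.63 (SE 1.34) and was not called in 16 of 17 alternatives, which began at 0.49. The exception was the fit without adipose control 2, at 2.80 (edgeR adjusted p = 0.0286).

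**Figure D3:**
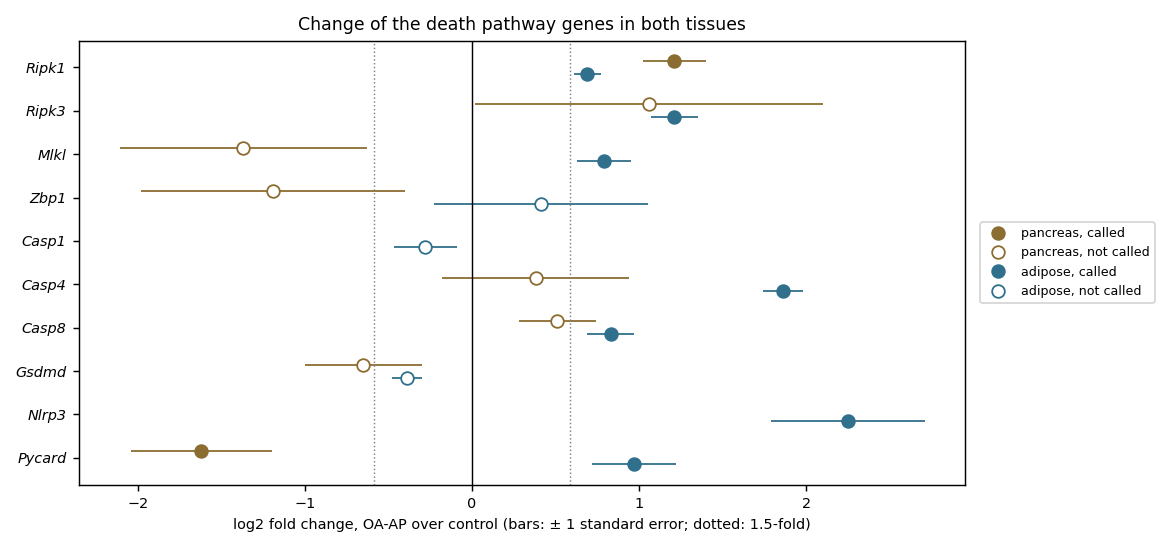
Log2 fold change of OA-AP over control for the 10 genes in the pancreas (brown) and adipose tissue (blue), with bars of 1 standard error, filled points for called genes and dotted lines at 1.5-fold. Pycard stands at -1.62 in the pancreas and 0.97 in adipose tissue, and Casp1 and Nlrp3 have no pancreas point because they were not tested there.

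The genes that surround these pathways were taken from 5 hand-written lists with 73 further genes. In adipose tissue 62 of the 73 were tested, 12 were called higher and 5 lower, a share close to the 25.1% of all tested genes, with a median log2 fold change of 0.14. In the pancreas 51 were tested, 9 were called higher and 5 lower, against 29.8% of all genes, with a median of 0.25. With library totals alone the pancreas split was 31 higher and 2 lower. With TMM factors, 16.2% of all tested pancreas genes were called higher and 13.5% lower, and 12.1% and 13.0% of adipose genes. The counts of single lists below were not tested against these shares.

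**Figure D4:**
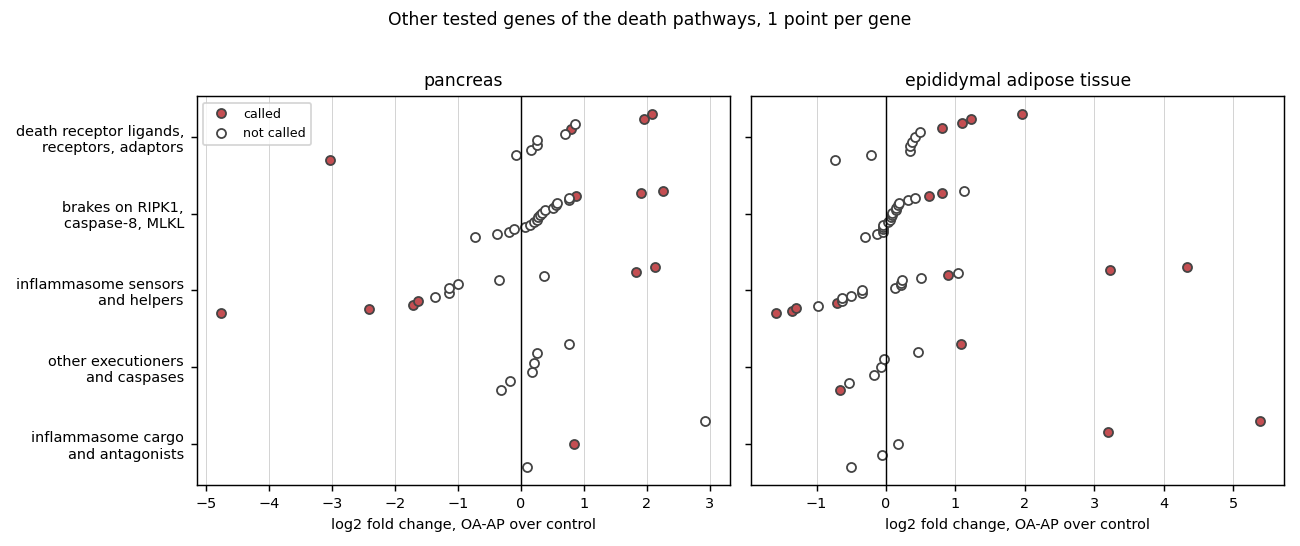
Log2 fold change of OA-AP over control for each tested gene of the 5 surrounding lists (rows), 51 in the pancreas (left) and 62 in adipose tissue (right), with filled points for called genes and each tissue on its own axis. Il1b at 5.39 lies farthest to the right in adipose tissue and Naip6 at -4.77 farthest to the left in the pancreas.

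Of the 12 death receptor ligands, receptors and adaptors, 4 of the 11 tested rose in fat. Tnfrsf1a, the main TNF receptor, averaged 193 ± 7.79 CPM in controls and 414 ± 63.9 CPM in OA-AP (SD, n = 3 each), a rise of 1.10 on the log2 scale (SE 0.14, edgeR adjusted p = 0.00178). Its ligand Tnf had 15, 8 and 13 counts in controls and 29, 34 and 42 in OA-AP and rose by 1.96 (edgeR adjusted p = 0.00302). The TRAIL receptor Tnfrsf10b rose by 1.22 and the second TNF receptor Tnfrsf1b by 0.81 on the log2 scale. In the pancreas 3 of the 10 tested rose and 1 fell. Tnfrsf1a measured 16.8 and 17.3 CPM in controls and 57.4, 48.3 and 91.8 CPM in OA-AP, without overlap. It rose by 1.95 on the log2 scale (SE 0.29, edgeR adjusted p = 0.0025), whereas Tnf was at 0 or 1 count in each pancreas library. Tnfrsf10b rose by 2.09 and the adaptor Tradd by 0.79, and the TRAIL gene Tnfsf10 fell by 3.04 on the log2 scale. The calls of Tnfsf10, Tnfrsf10b and Tradd were lost in 3 of 11, 2 of 11 and 5 of 12 alternatives.

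Of 20 listed regulators of RIPK1, caspase-8 or MLKL, most of which restrain cell death while Cyld and Spata2 can promote it, all were tested in both tissues, and 3 rose in the pancreas and 2 in fat. Birc3, a ubiquitin ligase that modifies RIPK1, rose in the pancreas from 6.35 and 7.78 CPM to 33.3, 28.6 and 38.6 CPM (log2 fold change 2.25, SE 0.19, edgeR adjusted p = 0.000238). In fat it rose by 0.62 (edgeR adjusted p = 0.0281), a call lost in 5 of 13 alternatives. Chmp4b, a subunit of the ESCRT-III membrane repair machinery, rose in both tissues, by 0.88 on the log2 scale in the pancreas and by 0.80 in fat. The pancreas call was lost without control 1, control 2 or OA-AP 1, with an edgeR adjusted p of up to 0.112. Mapkapk2, the kinase MK2 that phosphorylates RIPK1, rose by 1.90 in the pancreas, a call lost without control 2 (1.87, edgeR adjusted p = 0.0541).

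Of 21 inflammasome sensors and their helpers, 2 of 12 tested rose and 4 fell in the pancreas, and 3 of 19 rose and 4 fell in fat. Nek7, a kinase that binds NLRP3, rose in both, 3.55-fold in the pancreas, where its mean reached 79.6 ± 17.2 CPM (SD, n = 3) in OA-AP (log2 fold change 1.83, edgeR adjusted p = 0.000573), and by 0.89 on the log2 scale in fat (edgeR adjusted p = 0.0099). Txnip, a thioredoxin-binding protein, went from 287 and 214 CPM to 1100, 1040 and 1140 CPM in the pancreas, a log2 fold change of 2.13 (SE 0.18, edgeR adjusted p = 0.000209). Naip6, of a family of close copies among which reads may be split, went from 16.0 and 18.7 CPM in the control pancreas to 0.945, 0.629 and 0.314 CPM in OA-AP (log2 fold change -4.77, SE 0.34, edgeR adjusted p = 0.000102). The other 3 genes that fell in the pancreas were the guanylate-binding proteins Gbp3, Gbp5 and Gbp7, with log2 fold changes of -2.42, -1.64 and -1.72. DESeq2 did not call Gbp5 (adjusted p = 0.08), and the Gbp7 call was lost without control 1 (-1.46, edgeR adjusted p = 0.107) and with library totals alone (-1.04, edgeR adjusted p = 0.0569). In fat the pyrin gene Mefv, at 0.701, 0.763 and 0.851 CPM in controls, reached 9.12, 4.04 and 8.79 CPM in OA-AP (log2 fold change 3.23, edgeR adjusted p = 0.00122). Nlrp12, a sensor gene of myeloid cells, had 0, 2 and 2 counts in control fat and 18, 29 and 20 in OA-AP (edgeR adjusted p = 0.00198). The fat genes that fell were Nlrp1b, at -1.59, and Nlrp10, Nlrc4 and Aim2, at -1.35, -1.30 and -0.70. Gbp3 and Gbp5 of the pancreas genes, and Nlrp10, Nlrc4 and Aim2, were named after their values were seen.

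Among 14 further executioners and caspases, 6 were tested in the pancreas, and 0 were called by edgeR or DESeq2 and 0 had an unadjusted p under 0.05 in edgeR. In fat Panx1, a channel of dying cells, rose 2.12-fold and Casp9, an apoptosis caspase, fell by 0.66 on the log2 scale. Of the cargo of the inflammasome and its antagonists, Il1b rose most in fat. It had 0.554, 0.678 and 0.987 CPM in controls and 35.1, 6.35 and 52.9 CPM in OA-AP, a log2 fold change of 5.39 (SE 0.84, edgeR adjusted p = 0.00438). The order of the 3 OA-AP libraries was that of Nlrp3, with OA-AP 2 lowest. The receptor antagonist Il1rn rose by 3.20 (edgeR adjusted p = 0.00204), and Il18 was at -0.51 (edgeR adjusted p = 0.112). In the pancreas the protease inhibitor Serpinb1a rose by 0.84 (edgeR adjusted p = 0.00246), a call lost in 1 of 12 alternatives. Pancreatic Il1b had 5 and 5 counts in controls and 13, 4 and 187 in OA-AP (edgeR adjusted p = 0.312), with the high value again in OA-AP 3. Il1rn had 0 and 0 counts in control pancreas and 3, 3 and 41 in OA-AP, and DESeq2 called it higher (adjusted p = 0.0203), whereas the filter removed it before the edgeR test.

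Markers of several cell types moved with the adipose result. Of 6 fibroblast markers 5 were called lower, and their sum was 3940, 3270 and 4140 CPM in controls and 1930, 2380 and 1970 CPM in OA-AP. Of 8 adipocyte markers Plin1 and Lpl were called lower, at log2 fold changes of -1.47 and -0.95, and Lep higher, at 2.38. The 8 neutrophil markers summed to 7.01, 11.9 and 12.8 CPM in control fat and 181, 179 and 197 CPM in OA-AP, and 6 of 6 tested were called higher. The granulocyte surface marker Ly6g was near 0, with 1, 1 and 4 counts in controls and 3, 9 and 13 in OA-AP, and so was the granule gene Camp, with 3, 1 and 1 counts and 1, 3 and 0 counts. The neutrophil sum was nearly equal in the OA-AP libraries. Across these libraries Nlrp3 ranged from 2.21 to 8.08 CPM, Pycard from 7.15 to 13.0, Casp8 from 101 to 138 and Casp4 from 49.3 to 62.7 CPM. Ripk1 ranged from 52.6 to 55.3 CPM, Mlkl from 31.2 to 32.4 and Ripk3 from 20.6 to 22.4 CPM. The 8 macrophage markers summed to 937, 1210 and 1000 CPM in controls and 1160, 1170 and 1540 CPM in OA-AP, with 3 called higher and 1 lower. The pan-leukocyte gene Ptprc had 36.1, 59.4 and 31.1 CPM in controls and 37.6, 27.2 and 49.8 CPM in OA-AP, with overlap. The T and B lymphocyte markers summed to 12.8, 47.2 and 15.2 CPM in controls and 3.37, 4.28 and 5.10 CPM in OA-AP, and 6 of 8 were called lower. The part of these cells in the higher Casp4, Nlrp3, Ripk3, Pycard, Casp8, Mlkl and Ripk1 values was not tested. In the pancreas the neutrophil sums were 1.03 and 1.89 CPM in controls and 13.2, 3.6 and 101 CPM in OA-AP. Of the 6 markers tested there 0 were called by edgeR, 1 had an unadjusted p under 0.05, and 6 were called higher by DESeq2.

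**Figure D5:**
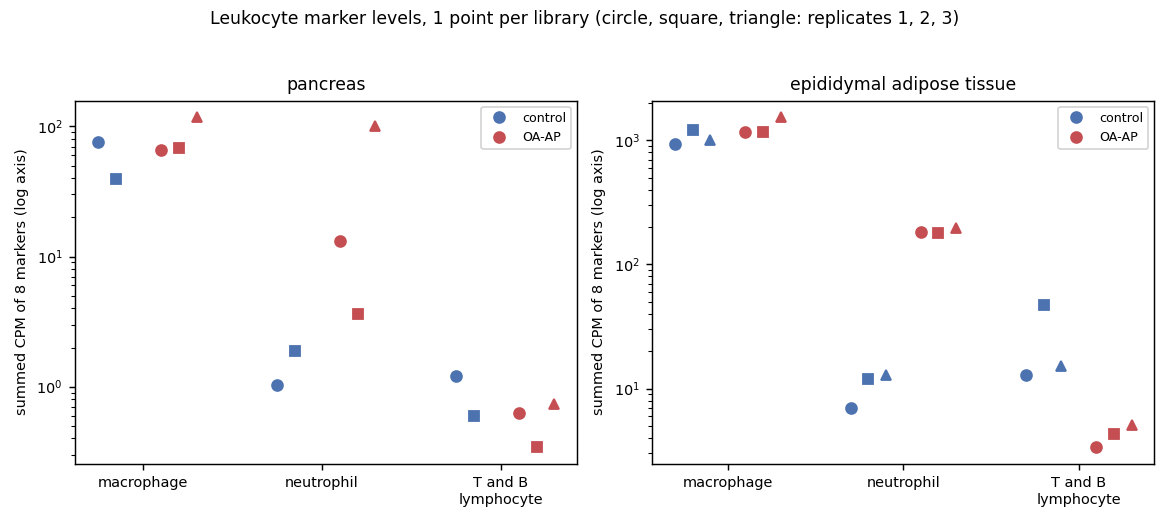
Summed CPM, on log axes, of the 8 macrophage, 8 neutrophil and 8 T and B lymphocyte markers, with a point for each control (blue) and OA-AP (red) library of the pancreas (left) and adipose tissue (right). In adipose tissue the neutrophil sum lies at 7.01 to 12.8 CPM in controls and 179 to 197 CPM in OA-AP, and in the pancreas OA-AP 3, at 101 CPM, has the highest neutrophil sum.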

How the data were processed

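Gene counts came from 11 RNA sequencing libraries, 5 of pancreas (2 control, 3 OA-AP) and 6 of epididymal fat (3 each). The authors trimmed reads with Trim Galore (0.6.6), checked them with fastp (0.20.1), aligned them by STAR to GRCm38 and assigned them to genes by featureCounts (2.0.1), and they deposited whole-number counts without normalization, 14188832 to 17238919 per pancreas library and 20825177 to 27928097 per adipose library. The annotation release and strand setting are not given in the sources used here, but start and end of the 10 genes equal those of GENCODE M21. The deposited gene length entered no test.

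Each tissue was fitted apart with edgeR (4.0.16, R 4.3.3): filterByExpr, TMM factors, the robust quasi-likelihood test and Benjamini-Hochberg adjustment over 12884 pancreas and 15839 adipose genes. A call needed an adjusted p under 0.05 and at least a 1.5-fold change. The tissue by condition term was tested over the 17046 genes kept from both tables, by adjusted p alone. Standard errors were obtained from each log2 fold change and its F statistic. DESeq2 (1.42.0) was an alternative, as were its size factors, library totals, factors without acinar markers, other filters and fold limits, a replicate block and each library left out. The fits were also run on counts simulated from the fitted model, which held no shift in acinar share, and the outcome is not given here. No pair of replicates was as alike as counting noise alone would make it (smallest chi-square per degree of freedom, 6.91).

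All 10 genes are reported, with up to 4 called genes of the smallest p per surrounding list and tissue. The genes, lists and motifs were chosen with earlier results of these data known. The alternatives for the named genes of the surrounding lists were added after seeing the data. Promoter sequences are from RefSeq, and those of Zbp1 and Gsdmd were not used here.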

Additional observations from a re-analysis of the deposited data

Results flagged for a closer look

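The change with OA-AP differed between adipose tissue and pancreas, by the tissue by condition test of edgeR over 11 libraries, for 4 of the 10 genes, against 21.3% of all 17046 genes tested. The differences, adipose minus pancreas on the log2 scale, were 2.59 for Pycard (edgeR adjusted p = 0.00385), 2.20 for Mlkl (edgeR adjusted p = 0.0284), 1.45 for Casp4 (edgeR adjusted p = 0.0334) and -0.54 for Ripk1 (edgeR adjusted p = 0.0485). For Pycard the 2 tissues had opposite called changes. The pancreas call was lost in 4 of 12 alternatives and the adipose call in 2 of 13, while the tissue difference was called in all 17. Mlkl was called in adipose tissue and was at -1.37 (SE 0.74) in the pancreas, on 4 to 15 counts per library. Without pancreas control 1 these Mlkl values were -0.27 in the pancreas and 1.07 for the tissue difference (edgeR adjusted p = 0.472). The calls of Mlkl, Casp4 and Ripk1 were lost in 8, 10 and 12 of 17 alternatives, the replicate block among them.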

How the results depend on the processing

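Of 130 values of the 10 genes recomputed in adipose tissue 126 kept their direction and call, of 89 in the pancreas 83, and of 170 tissue differences 129. A gene that was not called and stayed so with the same sign counted as kept, whatever its size. Uncalled pancreas values thus counted as kept while Ripk3 ran from 0.01 to 6.76, Mlkl from -1.95 to -0.27 and Zbp1 from -1.78 to -0.08. All lost pancreas calls were of Pycard. The cause of the changes was not tested. With library totals alone, 6349 pancreas genes and 33 surrounding genes there were called against 3834 and 14, the higher share of called genes in adipose tissue went from 48.1 to 32.1% (median -0.17), and 6662 genes and 2 of the 10 had a tissue difference, with 5.88% of the called positive against 50.7% (median -0.88). It turned the pancreas value of Gsdmd to 0.07 and the tissue differences of Ripk3, Casp8 and Gsdmd to -0.72, -0.53 and -0.60. With at least 10 counts in every library 9 surrounding pancreas genes were called. A fold change of 2 left 2464 pancreas genes, and 2228 adipose genes with 11 surrounding genes and 3 of the 10 there.

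Leaving out single libraries gave 1495 to 4265 pancreas genes (1495 without control 2, 1687 without control 1) with 1 to 2 of the 10 and 6 to 17 surrounding genes. In adipose tissue it gave 2865 to 4476 genes with 6 to 8 of the 10 and 15 to 17 surrounding genes. Tissue differences then numbered 2334 to 3857 genes (2334 without pancreas control 2) and 1 to 4 of the 10 (1 without pancreas control 1, pancreas OA-AP 1, adipose control 1 or adipose control 3), with Ripk3 between -7.40 and 1.18 and Casp1 between -0.96 and 0.46.

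Same-numbered samples did not deviate together (r = -0.16 to 0.09), and the labels do not say that same-numbered tissues come from one mouse. With the replicate block 2 of the 10 were called for the pancreas and 7 for adipose tissue, the same numbers as without it, while tissue differences went to 2156 genes and 1 of the 10, Pycard, and that of Ripk3 to -0.02. Low counts limit the pancreas results, where 6 of the 10 genes had under 100 counts in all.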

Other observations

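Among the adipose libraries, OA-AP 2 differed from OA-AP 1 and 3 in several of these genes. Of these 3 libraries it had the highest guanylate-binding protein values, with Gbp2 at 381 CPM against 77.5 and 126 CPM and Gbp5 at 66.8 CPM against 10.4 and 13.5 CPM, and the highest Pycard. The same library had the lowest Il1b, at 6.35 CPM against 35.1 and 52.9 CPM, the lowest Mefv, at 4.04 CPM against 9.12 and 8.79 CPM, and the lowest Nlrp3. Without this library Pycard was 0.67 and Nlrp3 2.62 higher in OA-AP fat on the log2 scale, and both were still called by edgeR (adjusted p = 0.0224 and 0.000844). These genes were picked after their values were seen.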
